A study of Bombyx mori with 2 samples.

Results

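The regions described here were the intronless loci that lay outside spliced genes in the wing bud assemblies of the silkworm *Bombyx mori*. A locus joined all transcripts of either assembly with an exonic base in common on 1 strand, and a transcript without a strand could join either. A locus became a member when both assemblies held it, all its transcripts had a single exon, the longest was at least 300 bases and no multi-exon transcript of either assembly spanned any of its bases. Of 25992 loci in all, 18473 were present in both assemblies, 7391 of these held only single-exon transcripts and 6894 of those passed the length minimum. A further 929 of the 6894 overlapped the span of a spliced transcript and were left out, so that 5965 members remained. No value of expression entered the choice, but a member had to be assembled in both libraries, so a locus transcribed in only 1 wing bud could not be one.

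The hindwing library came from wing buds of the third thoracic segment and the forewing library, against which it was set, from buds of the second, all from larvae of the Daizo race in the fourth instar, with 80 buds pooled for each. The buds are the flat larval epithelia that grow into the adult wings, and the labels name no allele or agent for either group. The study compared them as part of its work on the Hox protein Ubx, known from *Drosophila* to make the appendage of the third thoracic segment differ from the wing. There was 1 library per wing bud and no replicate, so every difference below is between 2 libraries only, and none could be tested over animals. Total RNA was primed with random hexamers and amplified with 11 cycles of PCR by a kit that does not mark strand, and the deposited bounds gave a depth of 43528000 fragments for hindwing buds and 37193000 for forewing buds. The intervals given with levels are the deposited ones, for the counting and assignment of fragments alone. As loci carry no gene names, the labelled tissue was not checked against markers, and per the study's methods a little of the trachea to which a bud is attached can remain on it.

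Most genes of animals hold introns, and their removal from the transcript is what an assembler uses to join exons and to read the strand. Genes that do without introns include the replication-dependent histone genes, the Hsp70 heat shock genes known from *Drosophila*, many genes that arose when a spliced RNA was copied back into the genome, and a number of long non-coding RNAs. A stretch of RNA without an intron can also be a piece of a longer gene, such as a 3′ untranslated region or a large exon, that an assembler did not join to the rest. An assembled single-exon transcript does not tell these kinds apart, and it has no strand.

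Members were shorter and lower than spliced loci. Their longest transcript had a median of 1161 bases, with quartiles of 703 and 2163, whereas the 10423 loci spliced in both libraries had a median of 2176. Levels are given in fragments per 1000000 (FPM), the number of fragments of a locus scaled to the depth of its library. The median level of members was 2.07 FPM in the hindwing and 1.88 FPM in the forewing, which rested on 90.0 and 70.0 fragments. For spliced loci both medians were 25.5 FPM. Members made up 5965 of the 18473 shared loci but took 11.4% of hindwing fragments and 11.3% of forewing fragments, against 85.3% and 85.9% in spliced loci. Shares of fragments or of a library, here and below, are of the summed level of all loci. Per length, in midpoint FPKM (the middle of the deposited interval, per kilobase, summed over the transcripts of a locus), the median member had 1.97 in the hindwing and 2.04 in the forewing, against 12.8 and 12.4 for spliced loci. The spread among members was wide, since 4041 had a mean of at least 1 FPM and 141 of at least 100 FPM.

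Of the length classes, that of 2000 to 5000 bases held the largest part of the level. The 1354 members of 2000 to 5000 bases held 47.1% of the summed level of members in the hindwing and 47.5% in the forewing. The more numerous 2029 members of 500 to 1000 bases held 14.5% and 14.9%. The 22 members of 10000 bases or more had median levels of 25.1 FPM in the hindwing and 16.5 FPM in the forewing. The structure was simple, with 1 transcript in each library for 5263 members. The assembled ends differed more, as 3273 members were longer in the hindwing, 2532 longer in the forewing and 160 of equal length. In 3954 members the longest transcripts of the libraries agreed within 1.2 times. The members just inside the length minimum were nscaf2891:655551-655851, with 1.13 FPM in the hindwing and 1.69 FPM in the forewing, and scaffold8277:3-302, with 0.816 and 0.954 FPM. The loci just outside were nscaf2931:1303262-1303590, with 0.563 and 1.06 FPM, and scaffold31075:296-594, with 2.81 and 2.003 FPM.

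Scaffolds without a spliced locus carried a large part of the set. On 1467 scaffolds no spliced locus was assembled at all, and these held 1621 members, or 27.2%. Such members had a median length of 695 bases, against 1458 bases for the 4344 members on 338 scaffolds that did hold a spliced locus. They held 29.7% of the summed level of members in the hindwing and 30.04% in the forewing, and 5 of the 10 most abundant members, named below, were among them. The median such member was low, at 1.36 FPM in the hindwing and 1.28 FPM in the forewing. On scaffolds with a spliced locus the medians were 2.55 and 2.40 FPM. Of 654 members that began within 10 bases of the first base of their scaffold, 620 were on scaffolds without a spliced locus. How far such members run past the scaffold's end, or belong to a spliced gene placed elsewhere, was not tested.

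A small number of members held much of the level, and they were alike in the 2 wing buds. The most abundant alone took 11.2% of the summed level of members in the hindwing and 11.6% in the forewing. The 10 most abundant took 29.4% and 29.6%, which was 3.34% of either library. In each library 105 members were enough to hold 50% of the level. None of the 10 differed by 2-fold, and their log2 ratios of hindwing over forewing ran from -0.32 to 0.41.

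The highest member, scaffold1570:1112-4011, had 12403 FPM (interval 12359 to 12446) in the hindwing and 12694 FPM (12646 to 12742) in the forewing. It was rank 2 of the 18473 shared loci by mean level and took 1.27% of the summed level of all loci in the hindwing and 1.30% in the forewing. The same scaffold held 1 other locus, also a member, scaffold1570:1-667, with 4060 FPM in the hindwing and 4621 FPM in the forewing. Per length this shorter one was the higher of them, at 6087 midpoint FPKM in the hindwing and 6928 in the forewing, rank 2 of the shared loci on that scale. No transcript was assembled on this scaffold beyond base 4011.

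A second scaffold had the same layout. Of its only loci, scaffold1561:2356-4320 had 2825 FPM in the hindwing and 2942 FPM in the forewing, and scaffold1561:1-2006 had 1074 and 1245 FPM. This last member was cut into 2 transcripts in the hindwing assembly and was whole in the forewing one. The member scaffold1143:1-4394 was alone on its scaffold, with 2702 FPM in the hindwing and 2226 FPM in the forewing. These 5 abundant members thus had no spliced transcript anywhere on their scaffolds.

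The other abundant members lay on long scaffolds. The member nscaf1681:5881700-5888100 had 4391 FPM in the hindwing and 3672 FPM in the forewing. It lay 5754 bases downstream of a spliced locus with 141 and 148 FPM, and it ended at the last assembled base of its scaffold. The member nscaf2801:615689-618837 had 1564 FPM in the hindwing and 1955 FPM in the forewing, 34225 bases from the nearest spliced transcript. At nscaf2855:2765471-2769184 the levels were 1143 FPM in the hindwing and 1221 FPM in the forewing. This member stood far above its surroundings, since its spliced neighbour 4865 bases away had 2.18 and 0.887 FPM. The member nscaf2686:19624-20784 had 1222 FPM in the hindwing and 1086 FPM in the forewing, and nscaf2795:2153386-2155519 had 1139 and 858 FPM, the largest ratio of the 10 at 1.33-fold (95% counting interval 1.31 to 1.35).

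**Figure D1:**
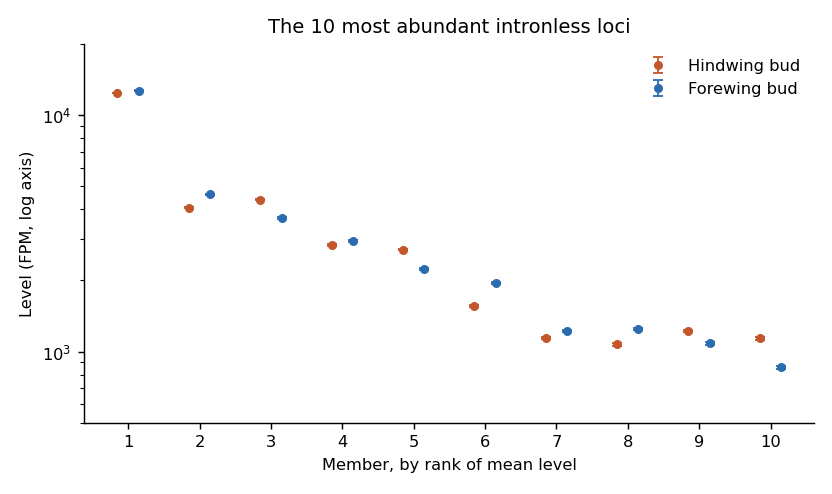
Level of the 10 most abundant members (FPM, log axis) in the hindwing and forewing bud libraries, ordered by mean level; bars are the deposited intervals, mostly smaller than the points. Levels run from 12403 FPM in the hindwing and 12694 FPM in the forewing at rank 1 to 1139 and 858 FPM at rank 10, and no member differs by 2-fold.

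The longest members were long in different ways. At nscaf2964:2599825-2618204 both assemblies held a single unbroken transcript, of 18380 bases in the hindwing and 17728 in the forewing, with 200 FPM (interval 194 to 205) and 190 FPM (184 to 196). It lay 100838 bases from the nearest spliced transcript. The member nscaf2766:484-23821 reached 21744 bases in 1 of 2 hindwing transcripts, but its 8 forewing transcripts reached 8053 at most, and the levels were 17.7 FPM in the hindwing and 13.2 FPM in the forewing. The third, nscaf2964:1770521-1791521, was assembled up to 18269 bases in the hindwing and as 9 pieces of up to 2873 bases in the forewing, with 12.2 and 6.64 FPM. Only the first of these members was thus of like length in the libraries.

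Many members lay near spliced loci, mostly beyond their 3′ ends. The gap to the nearest spliced transcript, measured for the 4344 members that had one on their scaffold, had a median of 2022 bases, with quartiles of 442 and 8706 and a largest value of 607585. Within 1 kb lay 1607 members. Because the neighbour's strand is known from its splice sites, the side of the member is known as well, and 2805 lay downstream and 1539 upstream. The downstream share was 73.7% (Wilson 95% interval 71.5 to 75.8) within 1 kb, 65.7% (63.0 to 68.2) at 1 to 5 kb and 56.4% (53.0 to 59.8) at 5 to 20 kb. Beyond 20 kb it was 49.8% (45.9 to 53.6), so that the sides were even there. These intervals treat loci as independent and cover counting only.

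A member between 2 convergent genes is downstream of both by position. There were 1385 members between convergent and 522 between divergent spliced loci. Among the 1932 members between spliced loci of 1 strand, where either side was equally open, 66.7% (63.3 to 70.0) of those within 1 kb lay downstream, and 43.9% (37.7 to 50.4) of those beyond 20 kb.

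**Figure D2:**
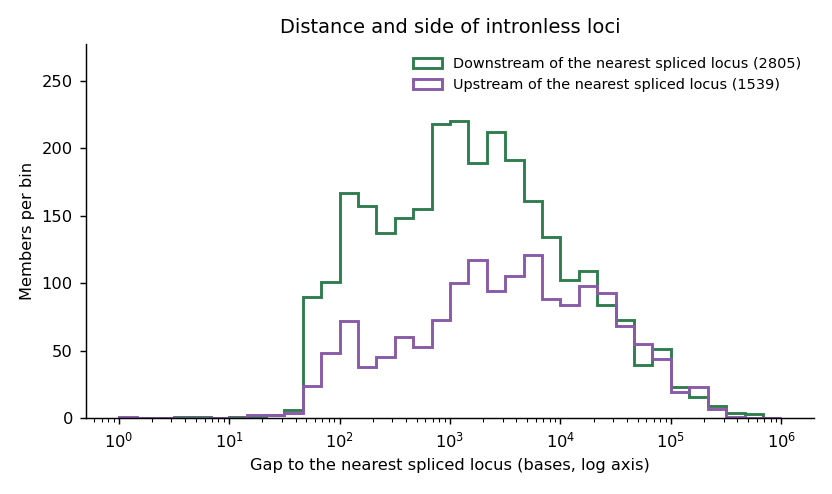
Number of members by the gap to the nearest spliced transcript on their scaffold (bases, log axis), for the 2805 downstream and the 1539 upstream of that locus; a gap of 0 bases is drawn at 1. The downstream line is the higher one up to about 20 kb, and beyond it the lines run together, with 49.8% downstream.

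Downstream members close to a gene were nearer to that gene's level per length than upstream ones were. Over 1050 members within 1 kb downstream of a locus spliced in both libraries, the median member had 5.83 midpoint FPKM in the hindwing and 5.79 in the forewing. Their neighbours had medians of 9.74 in the hindwing and 9.52 in the forewing. Taken one by one, the log2 of member over neighbour, each taken as the mean of the libraries, had a median of -0.41 with quartiles of -2.54 and 0.59, and 41.3% of the members were above their neighbour. Over 342 members within 1 kb upstream, the median was -2.40 with quartiles of -4.12 and -0.57, and 17.3% were above. With distance the downstream median fell to -1.35 at 1 to 5 kb and -2.89 beyond 20 kb, and the upstream median was -2.03 at 1 to 5 kb and -3.51 beyond 20 kb. The medians of the sides were thus farthest apart below 1 kb, while their quartile ranges overlapped in every distance class.

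**Figure D3:**
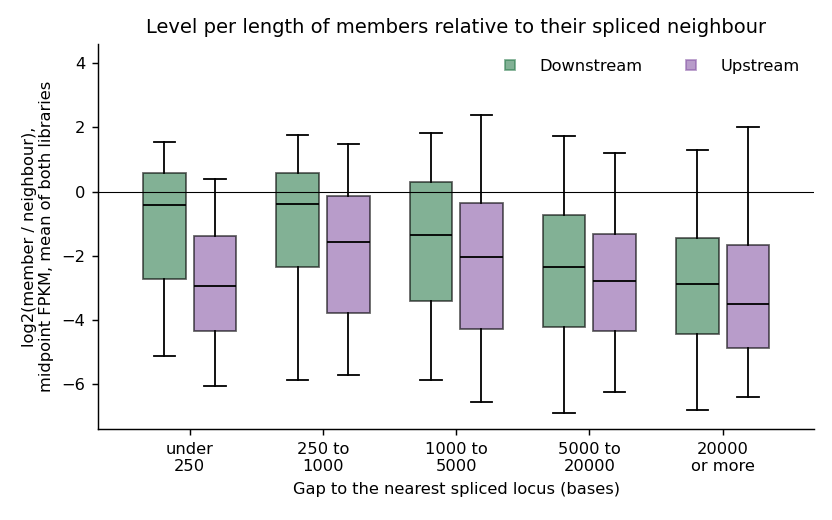
log2 of member over spliced neighbour in midpoint FPKM, each taken as the mean of the libraries, by gap and side; boxes give median and quartiles and whiskers the 5th and 95th percentiles. Under 1000 bases the downstream medians sit near -0.4 and the upstream medians at -2.93 and -1.58; at 20000 bases or more they are -2.89 and -3.51.

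Some members near a gene were far above it. The largest excess within 5 kb was at nscaf2855:4880480-4883075, which had 202 midpoint FPKM in the hindwing and 191 in the forewing, against 0.823 and 0.700 in the spliced locus nscaf2855:4877366-4879168. The member lay 1311 bases upstream of that locus and exceeded it by 8.01 on the log2 scale. The next was the abundant member nscaf2855:2765471-2769184 named above, with 311 midpoint FPKM in the hindwing and 329 in the forewing. Its neighbour nscaf2855:2774050-2780929 had 5.68 and 2.09, a log2 excess of 6.36.

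Some members lay near each other. When members at most 5 kb apart were chained, 3447 stood alone, 587 runs had 2 members and 334 runs had 3 or more, and these longer runs held 1344 members, or 22.5%. The largest had 18 members over scaffold418:186690-257150, summing to 38.3 FPM in the hindwing and 30.4 FPM in the forewing. A run of 17 over nscaf2823:3792942-3834372 summed to 69.5 FPM in the hindwing and 59.3 FPM in the forewing. Both long runs were thus made of modest members.

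The runs of 3 or more with the highest sums were led by single members. The run at nscaf2855:2765471-2773759 summed to 1154 FPM in the hindwing and 1234 FPM in the forewing, nearly all from the abundant member named above, and its other 3 members had from 1.45 to 8.21 FPM in the hindwing and from 1.46 to 10.4 FPM in the forewing. The run at nscaf2767:142896-151754 was more even. Its members had 99.2, 57.9 and 383 FPM in the hindwing and 87.9, 50.1 and 385 FPM in the forewing. The run at nscaf2943:257661-268218 had 1.96, 276 and 63.1 FPM in the hindwing and 1.94, 216 and 44.3 FPM in the forewing. In all 3 runs every member lay downstream of its nearest spliced locus, and the log2 ratios within them stayed between -0.34 and 0.51. Across 615 pairs of adjacent members at most 1 kb apart with at least 1 FPM each, the log2 ratios of the partners correlated at Spearman 0.41 and Pearson 0.38. Across 1312 pairs more than 5 kb apart the values were 0.05 and 0.06, again without a test, as all pairs come from the same libraries.

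Between the wing buds the members were much alike. The log2 ratio of hindwing over forewing, with 0.1 FPM added to each, had a median of 0.05 and quartiles of -0.16 and 0.28, where the median of all shared loci was 0.03. A change of at least 2-fold with intervals that did not overlap was found for 184 members, or 3.08%, against 4.83% of all 18473 shared loci by the same rule. Loci spliced in both libraries passed it in 4.88% of cases, 2.3% higher in the hindwing and 2.58% in the forewing. By direction, 143 of 5965 members were higher in the hindwing and 41 in the forewing by FPM. Per length the split was near even, at 196 and 204 by midpoint FPKM. Over all shared loci 516 of 18473 (2.79%) were higher in the hindwing and 377 (2.04%) in the forewing. Of the differing loci, those higher in the hindwing were 77.7% among members and 57.8% among all shared loci. The lean by FPM was thus in the split of the differing members. The part of all members that was higher in the hindwing was no larger than that of all shared loci. Among spliced loci the numbers were 240 higher in the hindwing and 269 in the forewing, so these did not lean to the hindwing as the members did.

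**Figure D4:**
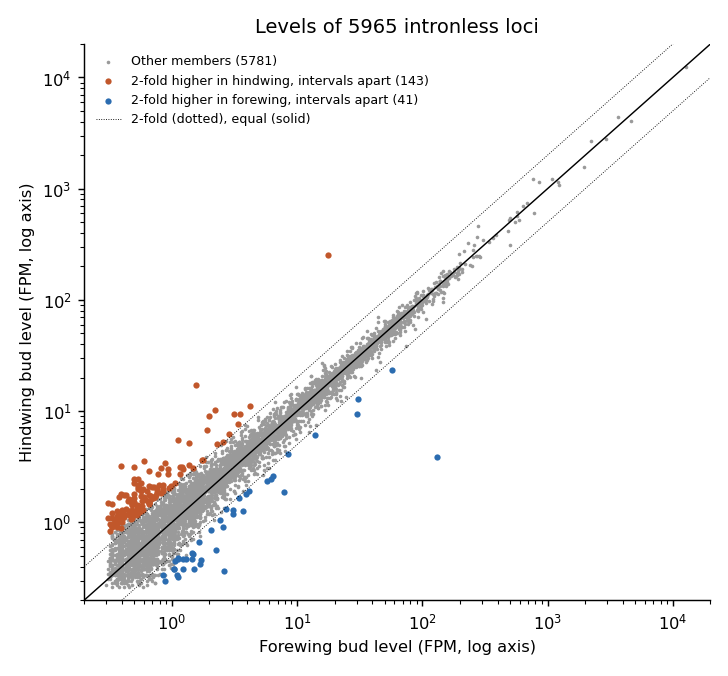
Level of each member in the hindwing (vertical, FPM, log axis) against the forewing (horizontal, FPM, log axis), with the line of equality and dotted lines at 2-fold. The 143 members higher in the hindwing by FPM lie mostly at low levels, and by midpoint FPKM the split is near even (196 and 204). Of members with a mean of 10 FPM or more, 1 is higher in the hindwing and 4 in the forewing by this rule, and the rest sit inside or near the dotted lines.

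The lean by FPM was counted by level and by assembled length. Below a mean of 2 FPM, 120 of 3007 members were higher in the hindwing and 24 in the forewing. At the same levels 33 of 928 spliced loci were higher in the hindwing and 43 in the forewing. From 2 FPM up, the members counted 23 and 17 of 2958 (1.35%), and the spliced loci 207 and 226 of 9495 (4.56%). From 10 FPM up it was 1 and 4 of 1407 members (0.355%), and 129 and 137 of 7211 spliced loci (3.69%). No member below 0.5 FPM passed in either direction. FPM is the midpoint times the assembled length, so a count by which library held the longer transcript is in part fixed by how the level was made. Midpoint FPKM went the other way with length, as given below. By length, the 1272 members assembled over 1.2 times longer in the hindwing held 120 that were higher in the hindwing and 6 that were higher in the forewing. The 739 that were as much longer in the forewing held 4 higher in the hindwing and 23 higher in the forewing. Among the 3954 of like length, 19 were higher in the hindwing and 12 in the forewing, 0.784% in all. With level and length crossed, 107 of the 143 were among the 839 members below 2 FPM that were assembled over 1.2 times longer in the hindwing; 4 of these 839 were higher in the forewing. Below 2 FPM, the 1711 members of like length held 12 higher in the hindwing and 3 in the forewing. A change of 2-fold in the same direction by FPM and by midpoint FPKM was found for 60 members, 38 higher in the hindwing and 22 in the forewing. A member counts only where both libraries assembled it, which took at least 11.5 fragments in the hindwing and 11.0 in the forewing, so the largest ratios of low loci are not among these values.

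**Figure D5:**
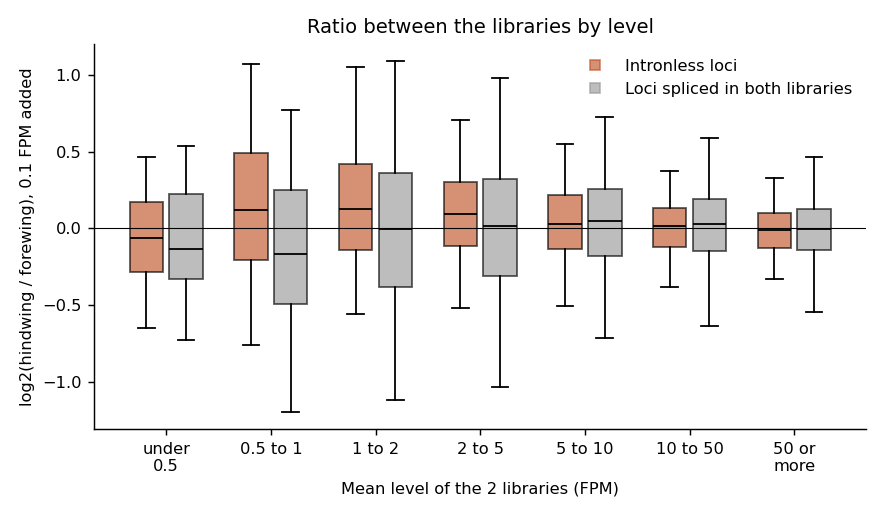
log2 ratio of hindwing over forewing by mean level (FPM), for members and for loci spliced in both libraries; boxes give median and quartiles and whiskers the 5th and 95th percentiles. Member medians are 0.12 from 0.5 to 2 FPM and -0.01 at 50 FPM or more; spliced medians are -0.17 at 0.5 to 1 FPM and about 0 at 50 FPM or more.

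By place, the 1455 members more than 5 kb from a spliced transcript on the same scaffold held 71 higher in the hindwing and 13 in the forewing, 5.77% in all. Of the 2889 within 5 kb, 49 were higher in the hindwing and 22 in the forewing, or 2.46%. Of the 1621 without a spliced locus on the scaffold, 23 were higher in the hindwing and 6 in the forewing, or 1.79%. Over all shared loci, at any level, 4.83% passed the same rule. The shares within 5 kb (Wilson interval 1.95 to 3.09) and without a spliced locus (1.25 to 2.56) lay below that value. The interval of the far members' share (4.69 to 7.09) contained it, so an excess of far members over all shared loci was not shown. Far members were low in level. Beyond 20 kb the medians were 1.41 FPM in the hindwing and 1.16 FPM in the forewing, against 4.68 and 4.46 FPM within 1 kb. Whether distance or level goes with the counts was not tested apart.

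Among the 2044 members with at least 5 FPM in a library, 24 passed the rule, 14 higher in the hindwing and 10 in the forewing. Over all shared loci, at any level, 4.83% passed it. The highest ratio was at nscaf3099:9874-11349, with 254 FPM (interval 247 to 260) in the hindwing and 17.6 FPM (15.8 to 19.4) in the forewing. This was 14.4-fold higher in the hindwing (95% counting interval 13.3 to 15.6), and the assembled lengths were 1476 bases in the hindwing and 1290 in the forewing. The member lay 224481 bases from the nearest spliced transcript, near the start of its scaffold. It was the only member of at least 10 FPM on average that was higher in the hindwing by this rule.

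The second highest ratio was at nscaf98:1432895-1433261, with 17.3 FPM (15.5 to 19.1) in the hindwing and 1.57 FPM (0.968 to 2.18) in the forewing, 10.9-fold higher in the hindwing (8.36 to 14.5). It lay 105 bases downstream of the spliced locus nscaf98:1433367-1452369, which had 347 FPM in the hindwing and 4.13 FPM in the forewing. Per length the member had 47.7 midpoint FPKM in the hindwing and 4.44 in the forewing, and the spliced locus had 57.0 and 5.28. Member and neighbour were thus close to each other per length in both libraries. By FPM they were not, with log2 ratios of 3.38 for the member and 6.36 for the neighbour.

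In the other direction the largest ratio was at nscaf2853:3070979-3074759, with 3.87 FPM (3.19 to 4.55) in the hindwing and 131 FPM (126 to 136) in the forewing. The forewing was 34.0-fold higher (29.2 to 39.9), on 168 hindwing and 4882 forewing fragments. The nearest spliced locus, nscaf2853:3104371-3241056, lay 29611 bases away with the member on its downstream side, and had 1.30 FPM in the hindwing and 48.5 FPM in the forewing. That locus was spliced in only 1 of the assemblies, and its log2 ratio of -5.12 was close to the member's -5.05. Per length the member had 1.11 midpoint FPKM in the hindwing and 34.7 in the forewing, and the neighbour had 1.71 and 33.9.

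The member nscaf1681:2800313-2802838 followed, with 1.86 FPM (1.40 to 2.32) in the hindwing and 7.90 FPM (6.90 to 8.90) in the forewing, 4.25-fold higher in the forewing (3.31 to 5.50). Its spliced neighbour 4481 bases away had 6.04 FPM in the hindwing and 3.66 FPM in the forewing, the opposite direction. At nscaf3058:9062851-9063783, chosen after its values were seen, the levels were 9.36 FPM in the hindwing and 30.03 FPM in the forewing. It lay 903 bases downstream of nscaf3058:9024565-9061947, which had 1.68 FPM in the hindwing and 7.14 FPM in the forewing. The remaining differing members with a mean of at least 10 FPM, named because they are few, were scaffold20710:1-663, with 23.3 FPM in the hindwing and 57.3 FPM in the forewing, and scaffold2144:1-1260, with 12.9 and 30.5 FPM. Both start at the first base of a scaffold without a spliced locus. Of 15 differing members of at least 5 FPM whose nearest spliced locus was spliced in both libraries, those at nscaf98 and nscaf3058 had a neighbour that passed the same rule in the same direction, 13.3% (Wilson 95% interval 3.74 to 37.9). Among 1532 members of at least 5 FPM that did not pass the rule themselves, 2.81% (2.09 to 3.76) had such a neighbour.

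Where member and neighbour both had at least 5 FPM, the ratio followed that of the neighbour weakly, and within 5 kb more on the downstream side. The log2 ratios of 486 such members within 1 kb downstream correlated with those of their neighbours at Spearman 0.34 and Pearson 0.56. Without the member at nscaf98 the Pearson value was 0.33 and the Spearman value stayed at 0.34. At 1 to 5 kb downstream, 272 members had Spearman 0.34 and Pearson 0.33. For 102 members within 1 kb upstream the values were Spearman 0.12 and Pearson 0.13, and for 130 at 1 to 5 kb upstream 0.08 and 0.03. Beyond 5 kb, 131 downstream members had Spearman 0.14 and Pearson 0.13, and 107 upstream members had 0.12 and 0.25. These are correlations across loci that share both libraries, and loci are not replicates, so they are given without a test.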

How the data were processed

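RNA of 1 pool of 80 hindwing buds and 1 pool of 80 forewing buds was sequenced. The authors trimmed low-quality reads, mapped read pairs with TopHat and assembled each library with Cufflinks, 2.1.1 per the submitters' processing notes. The deposited assemblies give for every transcript the FPKM, its interval bounds and exon positions, with a score column that entered no result. FPKM was not scaled between libraries by the authors, and their Cuffdiff comparison was not used. The build of the genome was "not given in the sources used here", and positions are printed as deposited, 1-based. No genome was used, and no sequence is shown. The gene table at hand shared 0 identifiers and 0 scaffold names with the assemblies.

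Level was the interval midpoint times length in kilobases, summed over the transcripts of a locus (FPM). The midpoint stood in for the deposited FPKM, which was between its bounds for only 76.2% of members in the hindwing and 77.9% in the forewing. Depth was the number of fragments at which bounds times length were whole within 0.05, which held for 96.4% of 13249 hindwing and 96.0% of 8719 forewing bounds below 30 fragments. Levels summed to 97.3% and 97.5% of that depth. Shares of fragments or of a library were taken of this summed level, not of the depth. A member differed when the log2 ratio, with 0.1 FPM added, was at least 1 either way and the bounds times length did not overlap. Fold intervals are exact binomial (Clopper-Pearson) at 95% on fragments, with nothing added. PCR copies were not marked, so all intervals cover counting error only. A gap was counted to the nearest multi-exon transcript.

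Positions named are the 10 most abundant members, the 2 largest ratios in each direction at 5 FPM or more, the 3 longest, those beside the length minimum, the 3 runs of highest level and the 2 largest excesses over a neighbour within 5 kb. The largest runs by number were added. Members, rules and alternatives were chosen with earlier results of these data known. The code was tested on simulated data. Software was pandas 2.3.3, numpy 2.4.6, scipy 1.17.1 and matplotlib 3.10.9 under Python 3.11.15.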

Additional observations from a re-analysis of the deposited data

How the results depend on the processing

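No paired analysis was possible because each wing bud had 1 library. The 184 differing members became 451 (218 higher in the hindwing and 233 in the forewing) by deposited FPKM, 400 (196 and 204) by midpoint FPKM, 290 (231 and 59) by the most abundant transcript alone, 113 (94 and 19) at least 5 kb from spliced spans, 37 (25 and 12) with 1 FPM added and 31 (19 and 12) for members of like length. The like-length setting kept 3954 of 5965 members, of which 0.784% differed, against 3.08% of all members. No count over all shared loci stands beside these settings. They thus do not show whether members differ more or less often than other loci when the measure changes. The lean to the hindwing was thus not seen by deposited or by midpoint FPKM, neither of which is multiplied by length. Centring on the median of all shared loci, a shift of 0.03, left 174 (131 and 43). The median log2 ratio of 0.05 was 0.068 from 1000 bases up, 0.080 at least 5 kb from spliced spans, 0.035 with 1 FPM added, 0.033 for like length, 0.021 after centring, 0.014 by deposited FPKM and 0.0065 by midpoint FPKM (interval -0.0073 to 0.018). Members numbered 3388 from 1000 bases up and 3076 at least 5 kb from spliced spans. Throughout this section, that last setting also takes in the 1621 members on scaffolds without a spliced locus, which have no measured gap. Its other 1455 members lay more than 5 kb from a spliced transcript on their scaffold. Their share of hindwing fragments, 11.4%, was 11.4% from 200 bases up, 9.54% from 1000 bases up, 5.38% at least 5 kb away, 10.3% by FPKM times length, 7.99% on scaffolds with a spliced locus and 8.01% without the 10 most abundant. The share of the 10 most abundant, 29.4% in the hindwing, was 29.3% from 200 bases up, 31.5% from 1000 bases up, 61.1% at least 5 kb away, 26.5% by deposited FPKM (40.4% in the forewing), 27.5% by midpoint FPKM and 16.1% on scaffolds with a spliced locus. The downstream share within 5 kb, 70.2%, was 64.2% between spliced loci of 1 strand. The correlation with the neighbour's ratio, Pearson 0.26 within 1 kb on either side, was 0.14 at 1 to 5 kb, 0.10 at 5 to 20 kb and 0.042 beyond. Joining exons on either strand changed no value. The median log2 ratio stayed above 0 and the log2 ratios of the 4 members named for their ratios kept their signs. The settings with midpoint FPKM, 1 strand, spliced scaffolds and without the 10 most abundant were chosen after seeing the data. The cause of a move was not tested. With 1 library per wing bud, depth limits the low members most, as 2066 had under 50 fragments in the hindwing and 2496 in the forewing.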

Other observations

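Single-exon loci of at least 300 bases outside spliced spans that only 1 library assembled were not members. There were 2895 in the hindwing alone and 745 in the forewing alone. Nearly all were low, with a median of 0.402 FPM in the hindwing set and 0.457 FPM in the forewing set, and together they took 0.205% of hindwing fragments and 0.0791% of forewing fragments. Of all 25992 loci, 18473 were in both libraries and the rest in 1 only. The hindwing library was 1.17 times as deep and held 16514 single-exon transcripts of any place, against 12054 in the forewing. How far depth goes with the split was not tested. At least 5 FPM was reached by 16 of the hindwing set, up to 284 FPM, and by 13 of the forewing set, up to 55.5 FPM. Their absence from the other assembly is not a level of 0, since the assembler needs a minimum of fragments. Of the 952 hindwing loci within 5 kb of a spliced transcript 56.5% lay downstream, as did 59.3% of the 295 forewing loci, against 70.2% of the 2889 members at that distance.

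The 929 shared single-exon loci of that length that overlapped a spliced span differed by the same rule in 95 cases, or 10.2%, with 79 higher in the hindwing and 16 in the forewing, a share above the 4.83% of all shared loci. The levels were unlike, with medians of 1.45 FPM in the hindwing and 1.12 FPM in the forewing, against 9.08 and 8.83 FPM for all shared loci. Below a mean of 2 FPM, 8.19% of spliced loci and 4.79% of members passed the rule. The median log2 ratio of the 929 loci was 0.12, against 0.05 for the members.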
